A study of Mus musculus with 4 samples.

Results

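Interferon signalling genes were examined in LSK cells, bone marrow cells without lineage markers that carry Sca1 and c-Kit, among which are the hematopoietic stem cells and early progenitors. The genes were the receptor chains Ifnar1, Ifnar2, Ifngr1 and Ifngr2, the transcription factors Stat2, Irf1, Irf7 and Irf9, and the feedback inhibitor Socs1. They were taken by symbol from probe sets annotated to a single gene, which gave 9 probe sets for 9 genes, out of 22180 genes tested and 41345 probe sets on the array. Each gene was read by 1 probe set, so no second probe set could be set beside it. The cells were sorted from bone marrow of male mice 8 weeks old, 2 wild-type (WT) samples and 2 SRC-3 knockout (KO) samples, with 1 Affymetrix array for each. The labels name no strain, treatment or promoter-driven Cre, and give no number of mice per sample. They call the samples biological replicates but do not say that each came from its own mice, so the spread behind the p-values may be partly or wholly technical.

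Type I interferons act through a receptor of Ifnar1 and Ifnar2, and interferon gamma through one of Ifngr1 and Ifngr2. Janus kinases on these chains phosphorylate STAT proteins, and STAT2 and IRF9 act in the complex ISGF3, which binds the interferon-stimulated response element (ISRE). Interferon gamma signals reach genes through the gamma-activated site (GAS) instead, and Irf1 is a well-known target of that arm. Irf7 raises the output of type I interferon genes and is itself interferon-induced, while Socs1 blocks the kinases and closes the loop. Interferons are known to drive dormant hematopoietic stem cells into division.

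The proximal promoters of 4 of these genes are shown because their transcripts were measured together and 3 of them hold the letters of an ISRE core or a GAS. Sequences are RefSeq's, assembly GRCm38.p6, the 250 bases before the annotated start, 5′ to 3′ on the strand of the gene, with motif letters in capitals. Stat2 is at chr10:128270248-128270497 on the plus strand, and Irf1 at chr11:53769764-53770013 on the plus strand. Socs1 is at chr16:10785537-10785786 and Irf7 at chr7:141266425-141266674, both on the minus strand.
Stat2: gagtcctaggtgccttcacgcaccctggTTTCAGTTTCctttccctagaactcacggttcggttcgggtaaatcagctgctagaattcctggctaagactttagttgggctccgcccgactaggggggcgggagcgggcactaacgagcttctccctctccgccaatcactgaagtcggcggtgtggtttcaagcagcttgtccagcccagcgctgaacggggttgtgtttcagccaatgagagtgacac
Socs1: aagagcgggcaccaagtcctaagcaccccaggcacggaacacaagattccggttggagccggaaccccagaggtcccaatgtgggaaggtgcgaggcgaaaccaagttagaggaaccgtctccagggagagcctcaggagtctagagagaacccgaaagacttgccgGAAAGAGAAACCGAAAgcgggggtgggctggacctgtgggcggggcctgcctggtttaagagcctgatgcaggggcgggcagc
Irf1: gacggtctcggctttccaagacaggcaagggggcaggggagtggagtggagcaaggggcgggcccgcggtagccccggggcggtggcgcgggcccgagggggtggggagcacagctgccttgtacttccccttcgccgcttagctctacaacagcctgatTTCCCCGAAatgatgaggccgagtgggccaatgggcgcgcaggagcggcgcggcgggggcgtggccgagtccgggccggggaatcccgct
Irf7: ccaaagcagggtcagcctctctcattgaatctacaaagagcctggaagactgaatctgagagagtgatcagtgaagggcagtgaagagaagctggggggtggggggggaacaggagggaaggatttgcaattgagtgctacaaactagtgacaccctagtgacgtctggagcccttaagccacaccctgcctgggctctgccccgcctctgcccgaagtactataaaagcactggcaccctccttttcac

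The ISRE core was searched as TTTC, any 2 bases, then TTTC, and the GAS as TTCNNNGAA, on both strands of windows that ran from 250 bases before to 50 bases after the start. The ISRE core was in 3.44% and the GAS in 8.30% of all 32851 such windows in the RefSeq table. All 9 genes had a window, and Irf1 and Irf9 had 2 each. In Stat2 the ISRE core lay at positions -222 to -213, counted from the start. Socs1 held a pair that overlapped, at -83 to -74 and -77 to -68, both on the opposite strand. Irf1 held a GAS at -90 to -82 in 1 of its windows. Ifnar2 held a GAS at -214 to -206, and that of Ifnar1 spanned the start, from -5 to 4. The windows of Ifngr1, Ifngr2, Irf7 and Irf9 held neither set of letters. A match describes the sequence and is no measured binding.

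Ncoa3, the gene of SRC-3, was at 7.76 and 7.05 (log2) on the WT arrays and at 5.35 and 5.09 on the KO arrays, a difference of -2.19 ± 0.27 (SE, limma adjusted p = 0.038, and 0.72 or 0.55 with KO replicate 1 or 2 left out). Array medians ran from 3.84 to 4.05. Over genes, arrays of the same genotype correlated at 0.986 to 0.992 and arrays of different genotype at 0.977 to 0.982. These are correlations across genes, which are not independent replicates. Of the LSK gate genes, Kit had a mean of 9.69 over the 4 arrays and Cd34 of 10.5, and Ly6a, which encodes Sca1, was not analysed here. Of 7 measured gate and progenitor genes, 3 (Kit, Cd34 and Flt3) were lower with an unadjusted p under 0.05, against 6.93% of all genes. Kit was at 10.3 and 9.65 in WT and at 9.43 and 9.34 in KO, a difference of -0.60 ± 0.23 (SE, limma adjusted p = 0.25).

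Irf7 rose in KO, and it was the 1 gene of the 9 that passed the test over all genes. Stat2, Ifngr1 and Socs1 had higher values on both KO arrays than on both WT arrays, with differences of 0.63 to 0.79 on the log2 scale that did not pass. Ifnar1 had lower values on both KO arrays, by 0.62, which did not pass either. Irf9 and Ifngr2 overlapped between the groups. At an adjusted p under 0.05, limma called 1 of 9 higher and 0 of 9 lower, where the background over all genes was 0.397% higher and 0.113% lower. With the looser rule of an unadjusted p under 0.05, 4 of 9 (44.4%) were higher and 1 of 9 (11.1%) lower, against 10.5% and 6.93% of all genes. The groups did not overlap for 7 of the 9 (77.8%), against 48.0% of all genes. KO lay above WT for 5 of them and below for 2, against 25.1% and 22.9% of all genes. The median difference of the 9 was 0.41, against -0.0010 over all genes. Because the 9 genes were chosen with earlier results of these data known, these shares are no independent evidence of direction. With 2 samples a group an exact two-sided permutation test of a single gene cannot go below p = 0.333, so the calls rest on the spread that limma pools across genes.

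**Figure D1:**
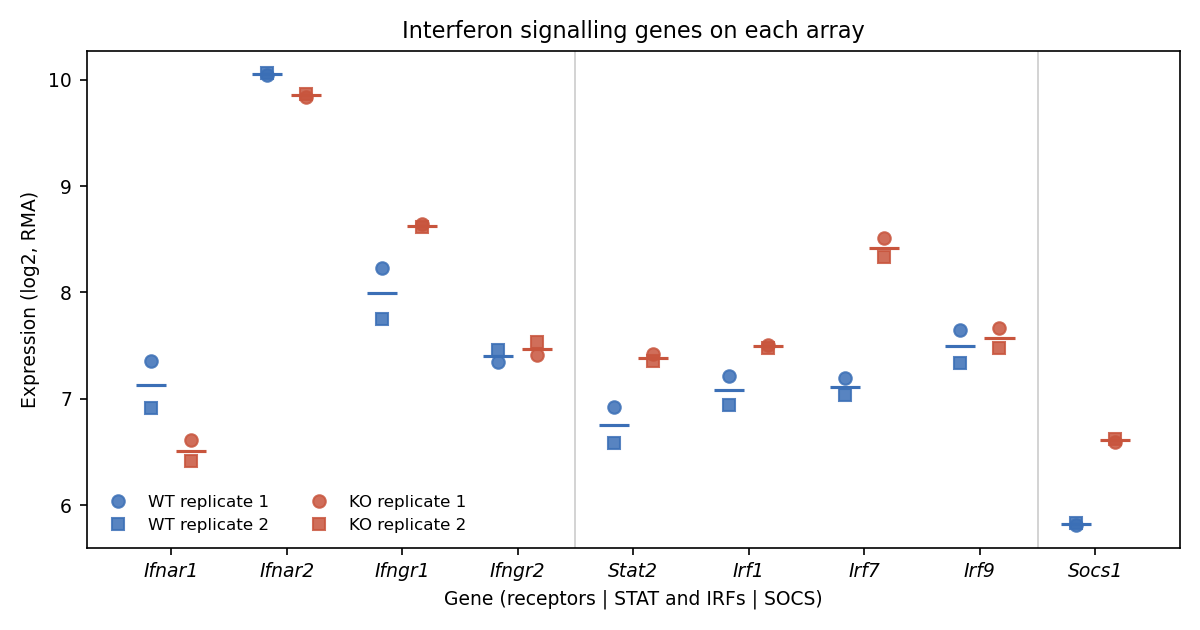
Expression of the 9 genes on each array (vertical axis, log2 RMA values), with WT in blue, KO in red, circles for replicate 1, squares for replicate 2 and bars for group means. The KO points of Irf7 (8.51 and 8.33) stand apart from its WT points (7.19 and 7.04), and for Irf9 and Ifngr2 the KO range overlaps the WT range.

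Of the receptor chains, Ifnar1 and Ifngr1 had the wider differences, Ifnar1 towards lower and Ifngr1 towards higher values in KO, and none of the 4 passed the test over all genes. Ifnar1, the first chain of the type I receptor, was at 7.36 and 6.91 in WT and at 6.61 and 6.41 in KO. Its KO values lay below both WT values, and WT replicate 2 lay nearer to the KO arrays than WT replicate 1. The difference was -0.62 ± 0.21 (SE, 1.54-fold, limma unadjusted p = 0.025, adjusted p = 0.21). Leaving out WT replicate 1 gave -0.40 and leaving out WT replicate 2 gave -0.85. Without KO replicate 1 it was -0.72, and without KO replicate 2 it was -0.52. Fits with a WT array left out called many more genes of all kinds, 1442 higher and 312 lower without WT replicate 1 and 1730 and 1272 without WT replicate 2. Ifnar2, its partner and the chain that binds interferon most tightly, was at 10.04 and 10.06 in WT and at 9.84 and 9.87 in KO. Its arrays varied little within a group, and the KO values were lower by 0.20, with a 95% interval from -0.51 to 0.11 for KO minus WT.

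Ifngr1, the ligand-binding chain for interferon gamma, was at 8.23 and 7.75 in WT and at 8.64 and 8.62 in KO. Both KO arrays were higher than both WT arrays, while the WT arrays stood 0.49 apart, the widest gap among the 9 genes. The difference was 0.64 ± 0.20 (SE, 1.56-fold, limma unadjusted p = 0.018, adjusted p = 0.19). Leaving out WT replicate 1 gave 0.88 and leaving out WT replicate 2 gave 0.39. Without KO replicate 1 it was 0.63, and without KO replicate 2 it was 0.65. Ifngr2, the second chain, was at 7.35 and 7.46 in WT and at 7.41 and 7.53 in KO. Its groups overlapped, and the 95% interval of KO minus WT ran from -0.33 to 0.47.

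WT replicate 1 was the higher WT array for both Ifnar1 and Ifngr1, and their ratio on each array varied less between the WT arrays than either gene. On the log2 scale Ifngr1 over Ifnar1 was 0.88 and 0.84 on the WT arrays and 2.03 and 2.21 on the KO arrays. The ratio was therefore 2.39-fold higher in KO, from 0.86 ± 0.03 to 2.12 ± 0.13 (SD, n = 2, exact two-sided permutation p = 0.333, the smallest that 2 against 2 can give). A ratio of probe sets on 1 array compares 2 genes within that array and says nothing of which has more transcripts. With 2 against 2 arrays, the ratio cannot establish that the 2 genes changed unequally. It was 1 of 6 pairs computed, all chosen after the values of the genes were seen, and the Benjamini-Hochberg adjusted exact permutation p was 0.4 for 5 of them and 1 for Socs1 over Ifngr1.

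Within the pairs of one receptor, Ifngr1 over Ifngr2 was 0.89 and 0.29 in WT and 1.23 and 1.09 in KO. Ifnar1 over Ifnar2 was -2.69 and -3.15 in WT and -3.23 and -3.46 in KO. Neither pair overlapped between the groups, and for both the gap between the WT arrays was about as wide as the difference between the groups.

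Ifnar2, Il10rb, Ifnar1 and Ifngr2 lie next to each other in that order among protein-coding genes on chromosome 16 of the RefSeq table. Il10rb, a receptor chain shared by interleukin 10 and lambda interferons, was at 8.82 and 8.60 in WT and at 8.46 and 8.42 in KO. Its difference of -0.27 ± 0.16 (SE, limma adjusted p = 0.46) had the sign of those of Ifnar2 and Ifnar1, and Ifngr2 had the opposite sign. On the far side of Ifngr2, Tmem50b overlapped between the groups (-0.20 ± 0.21). Olig2 and Olig1, on the near side of Ifnar2, were dim on all arrays. The 4 receptor genes of the cluster thus had differences from -0.62 to 0.07, and none passed the test over all genes.

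Irf7, the IRF that amplifies type I interferon production, was at 7.19 and 7.04 in WT and at 8.51 and 8.33 in KO. The groups were separated by far more than the gap between arrays of a group, which was 0.16 in WT and 0.18 in KO. Irf7 rose 2.48-fold, a difference of 1.31 ± 0.17 (SE, limma adjusted p = 0.044). The adjusted p was close to the threshold: it was 0.73 without KO replicate 1 and 0.55 without KO replicate 2, with differences of 1.22 and 1.40. Without either KO array limma called 0 genes of 22180, with 1471 and 1910 at an unadjusted p under 0.05. With the replicate number as a block the adjusted p of Irf7 was 0.054. Neighbouring genes on chromosome 7 did not differ beyond their spread, with Phrf1 at -0.19 ± 0.34 and Cdhr5 at -0.06 ± 0.18 (SE).

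The genes whose pattern over the 4 arrays lay nearest to Irf7, by Euclidean distance between centred log2 values and with mean levels not under the median gene, were Scrn3, 1700020L24Rik, Myl6, Prg3 and Tmem97. Their distances ran from 0.073 to 0.12. With 4 arrays this measure reads little more than the size of the difference. None of the 5 is in the interferon lists used here.

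Stat2 and Irf9 are the ISGF3 subunits among these genes, and the groups were separate for Stat2 and overlapped for Irf9. Stat2 was at 6.93 and 6.58 in WT and at 7.42 and 7.36 in KO. All KO values were higher, by 0.63 ± 0.19 (SE, 1.55-fold, limma unadjusted p = 0.014, adjusted p = 0.17). This difference was 0.80 without WT replicate 1 and 0.46 without WT replicate 2. Without KO replicate 1 it was 0.60, and without KO replicate 2 it was 0.66. The neighbours of Stat2 on chromosome 10, Apof and Il23a, were both dim. Apof overlapped between the groups. Il23a was higher on both KO arrays, by 0.48 ± 0.18 (SE, limma unadjusted p = 0.033, adjusted p = 0.24). Irf9, the DNA-binding subunit, was at 7.65 and 7.34 in WT and at 7.66 and 7.48 in KO. The groups overlapped, the difference was 0.08 with a 95% interval from -0.38 to 0.53, and its sign turned without WT replicate 2 (-0.078) and without KO replicate 1 (-0.013).

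The ratio of Stat2 over Irf9 on each array was -0.72 and -0.75 in WT and -0.24 and -0.12 in KO. That of Irf7 over Irf9 was -0.46 and -0.30 in WT and 0.85 and 0.86 in KO, a 2.35-fold rise of the ratio (exact two-sided permutation p = 0.333, n = 2 and 2). Both ratios were higher on each KO array than on each WT array, with gaps within a group of at most 0.16. Rec8, a meiotic cohesin gene next to Irf9, was at 5.42 and 5.37 in WT and at 4.42 and 4.32 in KO (-1.02 ± 0.17, SE, limma adjusted p = 0.067), and Rnf31 on its other side was at 0.43 ± 0.20.

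**Figure D2:**
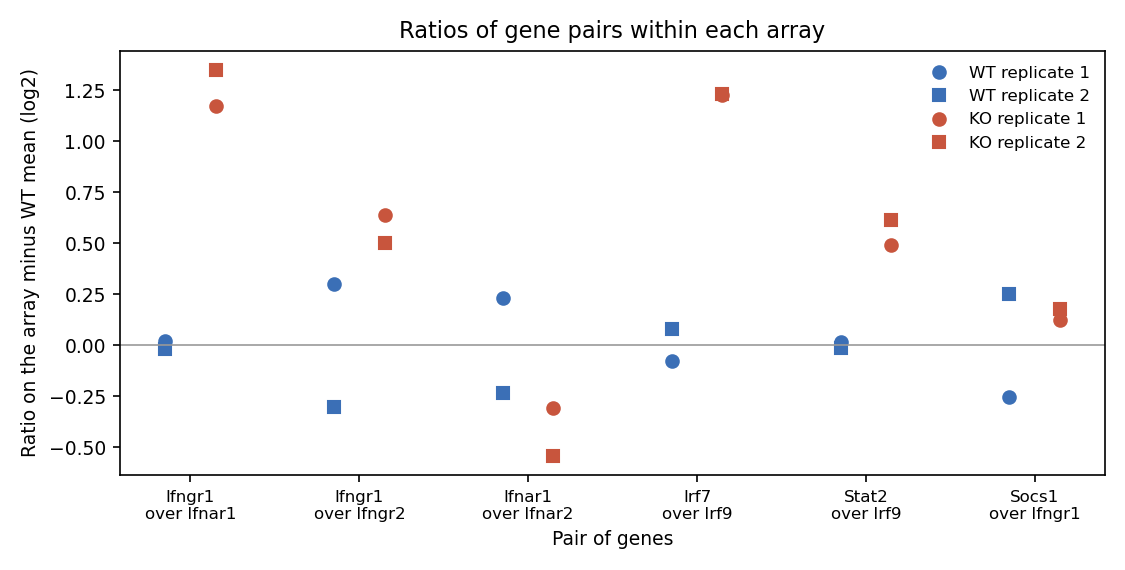
Log2 ratio of 2 genes on the same array, minus the WT mean of that ratio (vertical axis), for 6 pairs of genes, with WT in blue, KO in red, circles for replicate 1 and squares for replicate 2. Ifngr1 over Ifnar1 and Irf7 over Irf9 lie 1.26 and 1.23 higher in KO, and Socs1 over Ifngr1 overlaps between the groups.

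Irf1, an IRF that interferon gamma induces and a tumour suppressor in blood cells, was at 7.22 and 6.94 in WT and at 7.51 and 7.48 in KO. The KO values were both higher, by 0.41 ± 0.18 (SE, 1.33-fold, limma unadjusted p = 0.057, adjusted p = 0.30). The 95% interval ran from -0.02 to 0.85, and the difference was 0.55 without WT replicate 1 and 0.27 without WT replicate 2. Without KO replicate 1 it was 0.40, and without KO replicate 2 it was 0.43. Its neighbours Il5 and Slc22a5 overlapped between the groups.

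Socs1, the inhibitor that interferon signalling itself induces, was at 5.81 and 5.83 in WT and at 6.59 and 6.62 in KO. The arrays of a group lay within 0.034 of each other, and both KO arrays were higher. The difference of 0.79 ± 0.17 (SE, 1.73-fold) had the second smallest p of the 9 genes after Irf7 (limma unadjusted p = 0.0028, adjusted p = 0.10). With an array left out it was 0.78 without WT replicate 1 and 0.80 without WT replicate 2. Without KO replicate 1 it was 0.80, and without KO replicate 2 it was 0.77. Of its neighbours, Clec16a was at -0.28 ± 0.20 and Tnp2, which is dim, at 0.02 ± 0.23 (SE).

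**Figure D3:**
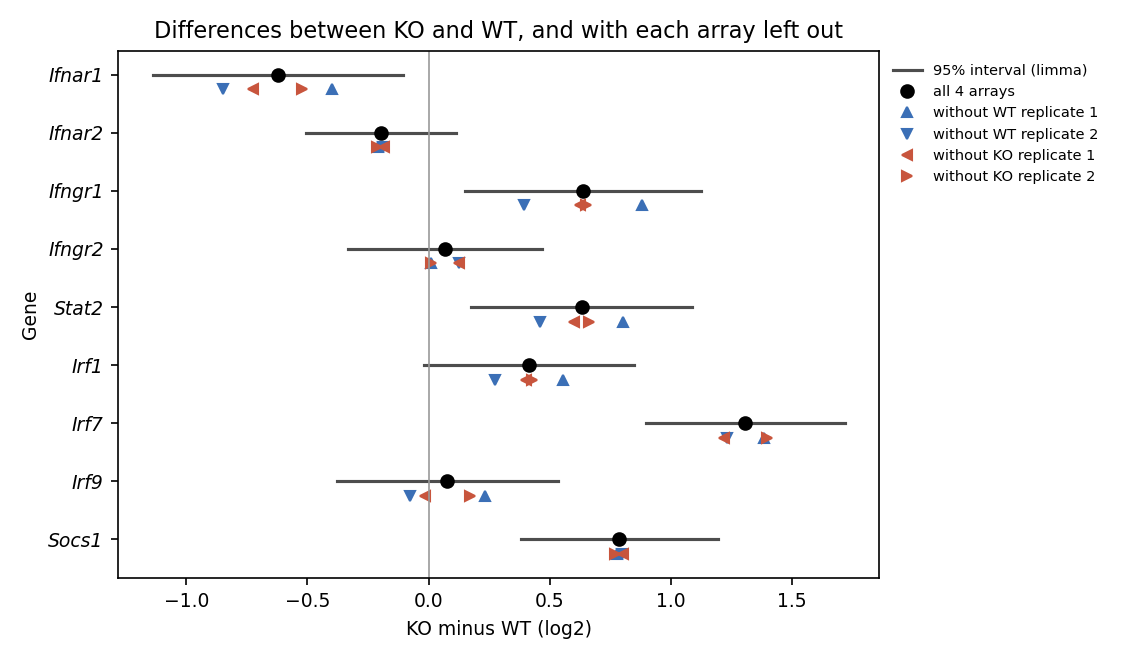
KO minus WT for the 9 genes (horizontal axis, log2), with black points for all 4 arrays, bars for the limma 95% interval and triangles for the value with 1 array left out. Irf7 stays between 1.22 and 1.40 whichever array is left out, Ifngr1 between 0.39 and 0.88, and Irf9 takes values on both sides of 0.

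The WT arrays differed more than the KO arrays for 6 of the 9 genes. Gaps between WT arrays ran from 0.018 to 0.49 and gaps between KO arrays from 0.022 to 0.20, and over all genes the median gaps were 0.23 and 0.15. WT replicate 1 was the higher WT array for 6 of the 9, and leaving out WT replicate 1 raised the differences of Ifngr1, Stat2 and Irf1 and shrank that of Ifnar1. The widest and the narrowest of these gaps were those of Ifngr1 and Ifnar2 in WT.

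The rest of the pathway was described through 9 lists. Over all genes, 0.397% passed as higher and 0.113% as lower, and 10.5% and 6.93% were so at an unadjusted p under 0.05. Of 5 measured genes of receptor chains and Janus kinases, 0 passed the test over all genes and 0 were at an unadjusted p under 0.05, with a median of -0.27. Jak1, the kinase shared by both receptors, was at 9.30 and 9.12 in WT and at 8.93 and 8.85 in KO (-0.32 ± 0.15, SE, limma adjusted p = 0.34). Jak2 was at -0.13 ± 0.19 and Tyk2 at 0.13 ± 0.33, both overlapping between the groups, and Ifnlr1, the lambda interferon receptor chain, at -0.29 ± 0.17 (SE).

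The other STATs had lower KO means than WT means in 5 of 5 measured genes, also after quantile normalization and after centring each array on its median. None passed over all genes in limma, and 2 were lower at an unadjusted p under 0.05. Stat4, which serves interleukin 12 and type I interferon signals, was at 8.23 and 8.02 in WT and at 7.30 and 7.23 in KO, a difference of -0.85 ± 0.17 (SE, limma adjusted p = 0.090). Stat3 was at -0.46 ± 0.19, Stat5b at -0.58 ± 0.29, Stat6 at -0.24 ± 0.27 and Stat5a at -0.14 ± 0.17 (SE). The median of these genes was -0.46, while Stat2 was at 0.63.

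Among 7 other IRFs and IRF2 binding proteins, 0 passed the test and 1 was higher at an unadjusted p under 0.05. That gene was Irf8, a factor of monocyte and dendritic cell development, at 8.34 and 7.97 in WT and at 8.60 and 8.64 in KO (0.47 ± 0.18, SE, limma adjusted p = 0.26). Irf3, the IRF that acts first after nucleic acid sensing, was at 0.36 ± 0.17. Irf2, which opposes Irf1 at shared sites, was at -0.25 ± 0.27, and its WT arrays at 7.55 and 8.29 spanned the KO range. Irf4 was at -0.21 ± 0.25, Irf2bp2 at -0.35 ± 0.16, Irf2bpl at -0.36 ± 0.17 and Irf2bp1 at -0.06 ± 0.17 (SE).

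None of the 7 other SOCS genes passed the test or had an unadjusted p under 0.05, and 6 of 7 had a lower KO mean (5 of 7 after quantile normalization or median centring), whereas Socs1 had a higher one. Socs7 was at -0.42 ± 0.22, Socs4 at -0.41 ± 0.21 and Socs5 at -0.22 ± 0.17 (SE). Socs3, the inhibitor of gp130 signals, was at 5.71 and 6.63 in WT and at 5.79 and 5.93 in KO, so its groups overlapped. Socs2 was at 0.16 ± 0.19, Socs6 at -0.14 ± 0.17 and Cish at -0.04 ± 0.18 (SE). Among 9 other inhibitors of JAK-STAT signalling, Usp18, which blocks Ifnar2 and is an interferon target, was the 1 that rose, from 6.94 and 7.02 to 8.63 and 8.53 (1.60 ± 0.16, SE, limma adjusted p = 0.023). The remaining inhibitors ran from -0.43 for Pias2 to 0.41 for Ptpn2, a phosphatase of Janus kinases, and none passed.

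Upstream of the IRFs, 0 of 16 measured sensors and kinases passed. At an unadjusted p under 0.05, 3 were higher and 0 lower. The 3 were nucleic acid sensors. Cgas, which detects cytosolic DNA, was at 0.88 ± 0.18 (SE, limma adjusted p = 0.090). Ifih1, an RNA sensor, was at 0.87 ± 0.18, and Dhx58, its relative, at 0.78 ± 0.17. Tlr7, which signals to Irf7 through Myd88, was at 6.96 and 7.95 in WT and at 6.80 and 6.68 in KO, and Myd88 at 0.17 ± 0.17.

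Of 19 measured interferon ligand genes, 1 fell and 0 rose past the threshold, and 13 of them had a mean level under the median gene. Ifna4 was at 7.37 and 7.69 in WT and at 5.87 and 5.91 in KO. Both KO arrays were lower, by 1.64 ± 0.19 (SE, limma adjusted p = 0.031), and the adjusted p was 0.73 without KO replicate 1 and 0.55 without KO replicate 2. The interferon alpha genes are near-identical copies, so the probe set may share signal with its relatives. At an unadjusted p under 0.05, Ifna2 (0.98 ± 0.27) and Ifnb1 (0.72 ± 0.28) were higher and Ifna4 and Ifnl2 (-0.47 ± 0.18) lower, and Ifna2 and Ifnb1 were dim on all arrays. Ifng was at 3.87 and 3.60 in WT and at 3.66 and 3.76 in KO, with groups that overlapped.

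Among downstream genes, 2 of 19 targets of ISGF3 and 6 of 18 interferon gamma targets rose and 0 of each fell, against 0.397% and 0.113% of all genes. These genes include some already known to be high in these KO arrays when the lists were made, so their counts are no independent evidence of direction. The ISGF3 targets had a median of 0.58, and 10 were higher at an unadjusted p under 0.05, where 10.5% of all genes were. They were uneven: Isg15 rose by 1.80 ± 0.19 (SE, limma adjusted p = 0.027) and Bst2 by 1.04 ± 0.12 (adjusted p = 0.030), while Rsad2 was at -0.28 ± 0.19, Oas2 at -0.15 ± 0.17 and Ifit3 at -0.24 ± 0.22 (SE). The interferon gamma targets had a median of 0.75, and 12 were higher at an unadjusted p under 0.05. The largest differences were those of Iigp1 (2.81 ± 0.22), Cxcl10 (2.55 ± 0.19) and Igtp (2.20 ± 0.24, SE), with limma adjusted p-values of 0.0094, 0.0090 and 0.028. Gbp4 rose by 1.88 ± 0.20 (adjusted p = 0.027), Irgm1 by 1.57 ± 0.19 (adjusted p = 0.038) and Irgm2 by 1.26 ± 0.16 (SE, limma adjusted p = 0.043). Ciita, the activator of MHC class II genes and a target of Irf1, was at 0.13 ± 0.18. All these calls were lost without either KO array, when limma called 0 genes, and with the replicate number as a block Irgm2 had an adjusted p of 0.058 and Bst2, an ISGF3 target, of 0.054. Bst2 also lost its call without the intensity trend (adjusted p = 0.058).

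**Figure D4:**
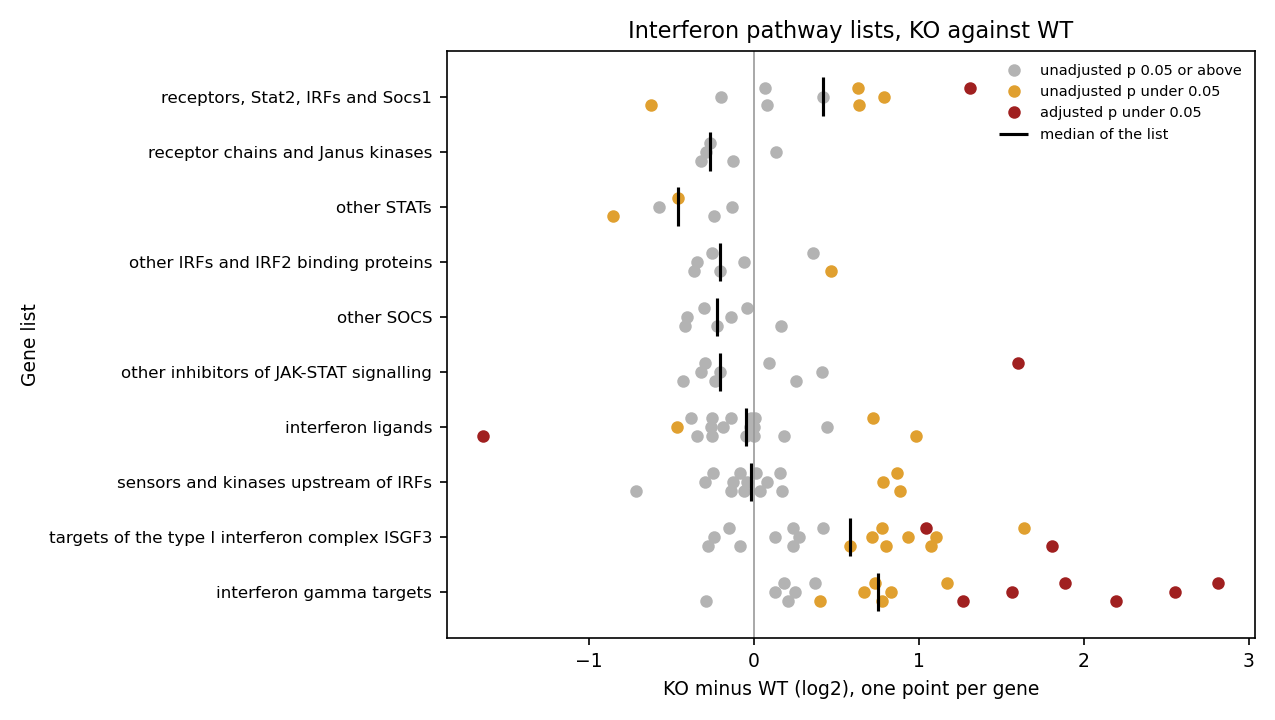
KO minus WT for each gene of the 9 interferon pathway lists and, in the top row, the 9 genes themselves (horizontal axis, log2), coloured by limma p, with a black bar at each median. The medians of the target lists are 0.58 and 0.75, and those of the other STATs, IRFs and SOCS genes are -0.46, -0.21 and -0.22.

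Markers of other cells were read beside these results, and their part in them was not tested. In a bulk sample more cells of a type and more RNA per cell cannot be told apart. At an unadjusted p under 0.05, 0 of 14 macrophage and dendritic cell markers were higher and 1 was lower, against 10.5% and 6.93% of all genes. Their summed linear level was 475 to 552 in WT and 475 to 492 in KO. Of 9 plasmacytoid dendritic cell markers, cells that hold much Irf7, 1 was higher and 1, Tcf4, lower. The higher one was Bst2, itself an interferon target, which took the summed level from 1651 to 1848 in WT to 2881 to 2932 in KO. Siglech, the defining marker of these cells, was at 4.25 and 4.18 in WT and at 4.32 and 4.26 in KO.

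Neutrophil markers were higher in 6 of 10 at an unadjusted p under 0.05, where 10.5% of all genes were higher and 6.93% lower. Of these markers, 0 of 10 passed the test over all genes. Their summed level was 288 to 373 in WT and 644 to 683 in KO. Of 4 measured erythroblast markers, Rhag (3.67 ± 0.24), Ermap (3.97 ± 0.29) and Tspan33 (1.33 ± 0.18, SE) were called higher in limma. The fourth, Slc4a1, was lower on both KO arrays, at -0.96 ± 0.24 (SE, limma unadjusted p = 0.0063, adjusted p = 0.13). Erythroblast markers had a summed level of 76.7 to 79.5 in WT and 436 to 449 in KO. T and NK cell markers had 0 of 11 higher and 2 lower, with sums of 915 to 1239 and 1349 to 1415. Most of that sum was Nkg7, at 9.64 and 10.11 in WT and at 10.27 and 10.36 in KO (log2), and 9 of the 11 had mean levels under the median gene. No marker is at 0 on an array, and the lowest value among these lists was 1.81 (log2).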

How the data were processed

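The values were those of the table the authors deposited, on the log2 scale, for 41345 probe sets on 4 arrays. RMA and Affymetrix Expression Console 1.2.1 are named, without settings, per the submitters' processing notes. The log2 scale was read from the values, which ran from 0.375 to 12.8. No source used here states the genome build. RMA compresses dim values, which understates their folds. No scanner files, detection calls or scan batches were used here, and having 2 arrays in each group limits the precision.

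Gene names came from the annotation of the platform, in which 23521 probe sets had 1 gene, 1814 had several and 16010 were not listed. Each gene took its single-gene probe set of highest mean, which gave 22180 genes, with no filter on level. All 9 genes matched the RefSeq table by gene identifier.

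The comparison of KO and WT used limma 3.58.1 (R 4.3.3) over all genes, with an intensity trend and two-sided p-values adjusted by Benjamini-Hochberg, at a threshold of 0.05. Errors are moderated standard errors (SE) for differences and SDs for group means. The models were tested on simulated data. The genes, the 9 pathway lists and the 6 marker lists were chosen with earlier results of these data known. The text names all 9 genes, most of their neighbours in the RefSeq table, every gene of the STAT, IRF, SOCS and receptor or kinase lists, from the other pathway lists those past the threshold and some of smallest p, and some markers. Tlr7, Myd88, Ifng, Rsad2, Oas2, Ifit3, Ciita, Siglech, Slc4a1, Nkg7, Tcf4 and Ptpn2 were picked after their values were seen. Alternatives were a replicate block, no trend, quantile normalization, median centring, a filter at the median level, the mean of probe sets, single probe sets, and each array left out. The within-array ratios were added after seeing the data.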

Additional observations from a re-analysis of the deposited data

How the results depend on the processing

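Each of the 9 genes was refitted under 11 alternatives, and 87 of the 99 values kept their direction and their side of the threshold. The replicate block, the fit without trend and the level filter leave each difference as it was. With 1 probe set per gene, so do the mean of probe sets and single probe sets. Direction was thus fixed in advance for these alternatives, and the count of 87 is no measure of robustness. Irf9 changed sign with WT replicate 2 left out (-0.078) or KO replicate 1 left out (-0.013), and ran from -0.078 to 0.23 over the 4 arrays left out in turn. Irf7 ran from 1.22 to 1.44, with adjusted p-values from 0.0099 to 0.73, and Socs1 from 0.77 to 0.92, with adjusted p-values from 0.024 to 0.74. With each array left out in turn, 0 to 5 of the 9 genes were called higher and 0 to 1 lower, and at an unadjusted p under 0.05 1 to 5 were higher and 0 to 2 lower. Over all genes 0 to 1730 were called higher and 0 to 1272 lower, and over the pathway lists 0 to 26 and 0 to 14. At an unadjusted p under 0.05 those lists had 18 to 37 higher and 2 to 19 lower genes. The lowest counts came without a KO array. The spread in such a fit rests on the WT arrays alone, whose median gap over genes was 0.23, against 0.15 in KO. Whether this gap set the counts was not tested. Quantile normalization gave 142 higher and 47 lower genes, and the filter at the median level 208 and 81. Centring each array on its median gave 320 and 42, so 88.4% of calls were higher instead of 77.9% (88 and 25). Centring moved the median of all genes up by 0.13, after which 0 of the 9 genes and 2 of the pathway genes were lower at an unadjusted p under 0.05. The replicate numbers are not stated to pair the samples. Deviations of same-numbered arrays correlated at 0.11 over genes. With the replicate block, 83 genes were called higher and 28 lower and 0 of the 9 genes were called, and Irf7 had an adjusted p of 0.054. Of 70 counts outside the left-out arrays, 61 stayed within 1.5 times. Weak differences such as those of Ifngr2 and Irf9 are not resolved by 2 arrays a group.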
